A study of Mus musculus with 10 samples.

Results

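The bone morphogenetic protein (BMP) and transforming growth factor beta (TGF-beta) signalling genes are followed here in mouse neural crest cells with and without an activated p53. They were chosen by name, as ligands, receptors, Smads, Id genes, antagonists and latent binding proteins of the superfamily, and the deposited table held 63 of them among 49671 genes. The 10 RNA libraries come from GFP-positive cells sorted from 1 embryo each, at embryonic day 10.5 on a mixed 129/Sv-C57BL/6 background. The 5 p53_activated embryos carried the genotype Wnt1Cre;R26mTmG;p53LSL-25,26/+. In these, the Cre recombinase driven by Wnt1 removes a stop cassette from 1 Trp53 allele and so releases a stabilised p53 with changes in its transactivation domain, while the other allele is normal. The 5 control embryos were littermates with the genotype Wnt1Cre;R26mTmG;p53+/+. Both groups carry the Cre transgene and the R26mTmG reporter, which turns cells green once Cre has acted. Wnt1 is active in the dorsal neural tube, so the sorted cells can include neural tube cells beside neural crest, and the libraries are bulk RNA, in which fewer cells of a type and less RNA per cell cannot be told apart.

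In this superfamily, secreted dimeric ligands bring type II and type I serine/threonine kinase receptors together. BMP-type receptors pass the signal to Smad1, Smad5 and Smad9, TGF-beta and activin receptors pass it to Smad2 and Smad3, and both groups of Smads enter the nucleus with Smad4. Secreted antagonists such as noggin and chordin trap the ligands, latent binding proteins hold TGF-beta in the matrix, Smad6 and Smad7 feed back on the receptors, and the Id genes are direct targets of the BMP branch. BMPs from the roof plate and the overlying ectoderm help to induce the neural crest, and later BMP and TGF-beta signals act on its sympathetic, skeletal and smooth muscle derivatives.

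The p53_activated libraries held 14644162 to 28379562 counts and the control libraries 12368058 to 23514828. Since each library is a single embryo, p-values measure the spread between embryos. The p53 target Cdkn1a lay between 90.8 and 117 CPM (counts scaled to library size) in p53_activated embryos and between 5.82 and 9.57 CPM in control embryos, which is the direction the labels give. Of the 6 neural crest markers examined, 0 passed the test in either direction, and their summed level was 153 to 190 CPM in p53_activated and 156 to 205 CPM in control libraries. Of the 6 neuronal markers all fell, with a summed level of 251 to 373 CPM in p53_activated and 461 to 620 CPM in control libraries. Control replicates 1 and 2 stood apart from the other 8 libraries. Their ratios of the embryonic globins Hbb-y to Hbb-bh1 were 4.97 and 2.69, against 1.59 to 2.08 elsewhere, and their levels of the stage-dependent gene Lin28a were 2.96 and 6.21 CPM, against 10.8 to 24.8 CPM elsewhere. Without both, 11 of the 45 tested members changed sign and the fold of 3 moved over 1.5 times, and the members concerned are named with their values in the paragraphs on their roles or under the processing.

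Few of the BMP and TGF-beta genes passed a test between the genotypes. Of the 63 members, 45 had enough counts to be tested. Smad3 was the only one of them to pass an adjusted p of 0.05 (edgeR quasi-likelihood test), as 1 higher and 0 lower call. That is 2.22% of the tested members, where 7.23% of all tested genes passed, 4.49% of them higher and 2.74% lower. An unadjusted p under 0.05 was reached by 6 members (13.3%, against 22.6% of all tested genes), and 0 of the 45 had embryos of the groups that did not overlap, against 8.07% of all tested genes. Log2 fold changes of p53_activated over control were above 0 for 22 members and below 0 for 23, with a median of -0.02, and the median of all tested genes was -0.01. The median size of the change, without its sign, was 0.21 over the members and 0.22 over all tested genes. For 32 of the 45 members the 95% interval of the fold change lay inside 0.5 to 2, and for 17 of these within 1.5-fold either way, so a change past 2-fold lay within the interval for the remaining 13. In the authors' deposited table, adjusted p under 0.05 were given for Smad3 (log2 fold change 0.63, adjusted p = 0.00785) and Gdf11 (-0.32, adjusted p = 0.0288) among the members named here.

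**Figure D1:**
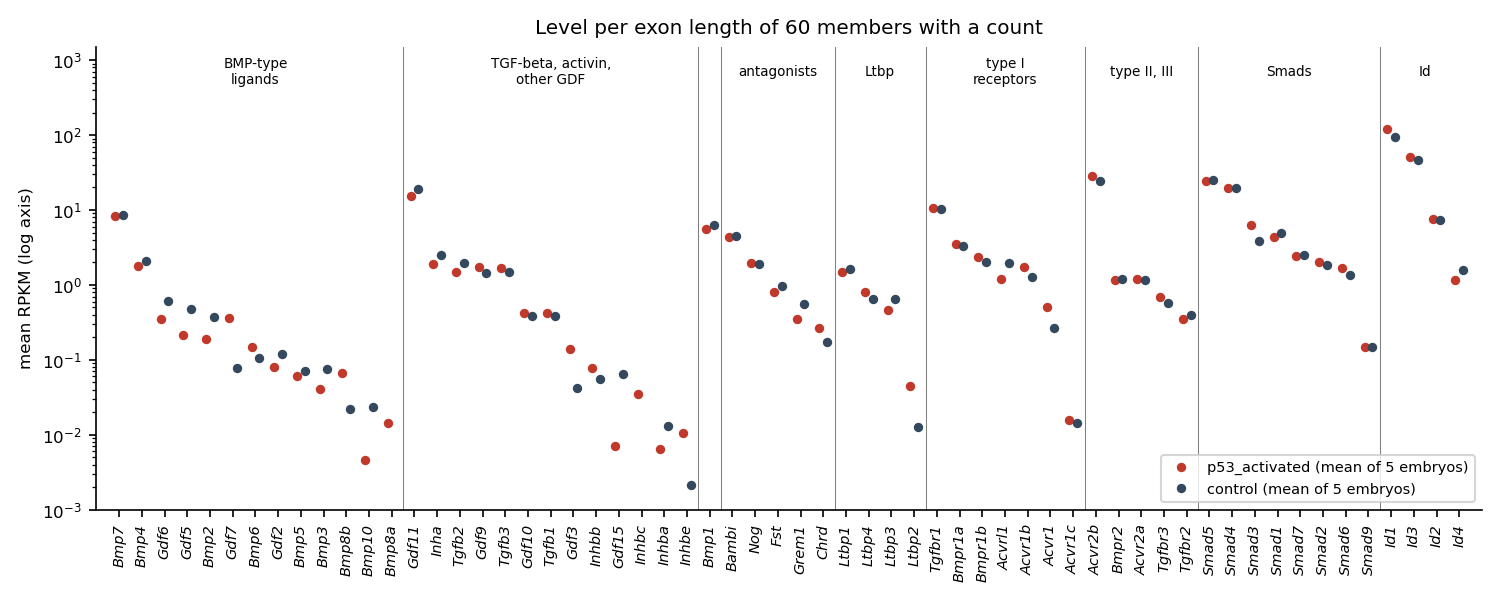
Mean level of 60 members with a count, as RPKM (CPM per kilobase of exon, log axis), by role and in falling order within a role, with p53_activated embryos in red left of control embryos in dark blue (mean of 5 embryos each; a mean of 0 is not drawn). Id1 stood highest at 107 RPKM over all libraries, and most ligands lay below 1 RPKM.

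The levels show which parts of the pathway these cells carried. On the per-length scale (RPKM), 31 of the 45 tested members averaged at least 1 RPKM over all libraries and 7 at least 10 RPKM. Those 7 were the targets Id1 (107 RPKM) and Id3 (48.7 RPKM), the type II receptor gene Acvr2b (26.4 RPKM), the signal transducers Smad5 (24.7 RPKM) and Smad4 (19.7 RPKM), the ligand gene Gdf11 (17.3 RPKM) and the type I receptor gene Tgfbr1 (10.6 RPKM). Within each class 1 gene held most or the largest share of the summed RPKM, and its share overlapped between the genotypes. Bmp7 made up 71.3% ± 2.91 of the BMP-type ligands in p53_activated and 68.5% ± 1.71 in control embryos (SD, n = 5 each). Acvr2b made up 90.9% ± 1.075 of the type II receptors in p53_activated and 88.9% ± 4.42 in control embryos. Smad5 made up 84.3% ± 2.32 of Smad1, Smad5 and Smad9 in p53_activated and 82.8% ± 2.46 in control embryos. Tgfbr1 supplied 53.9% ± 1.95 of the type I receptors in p53_activated and 54.0% ± 3.23 in control embryos.

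**Figure D2:**
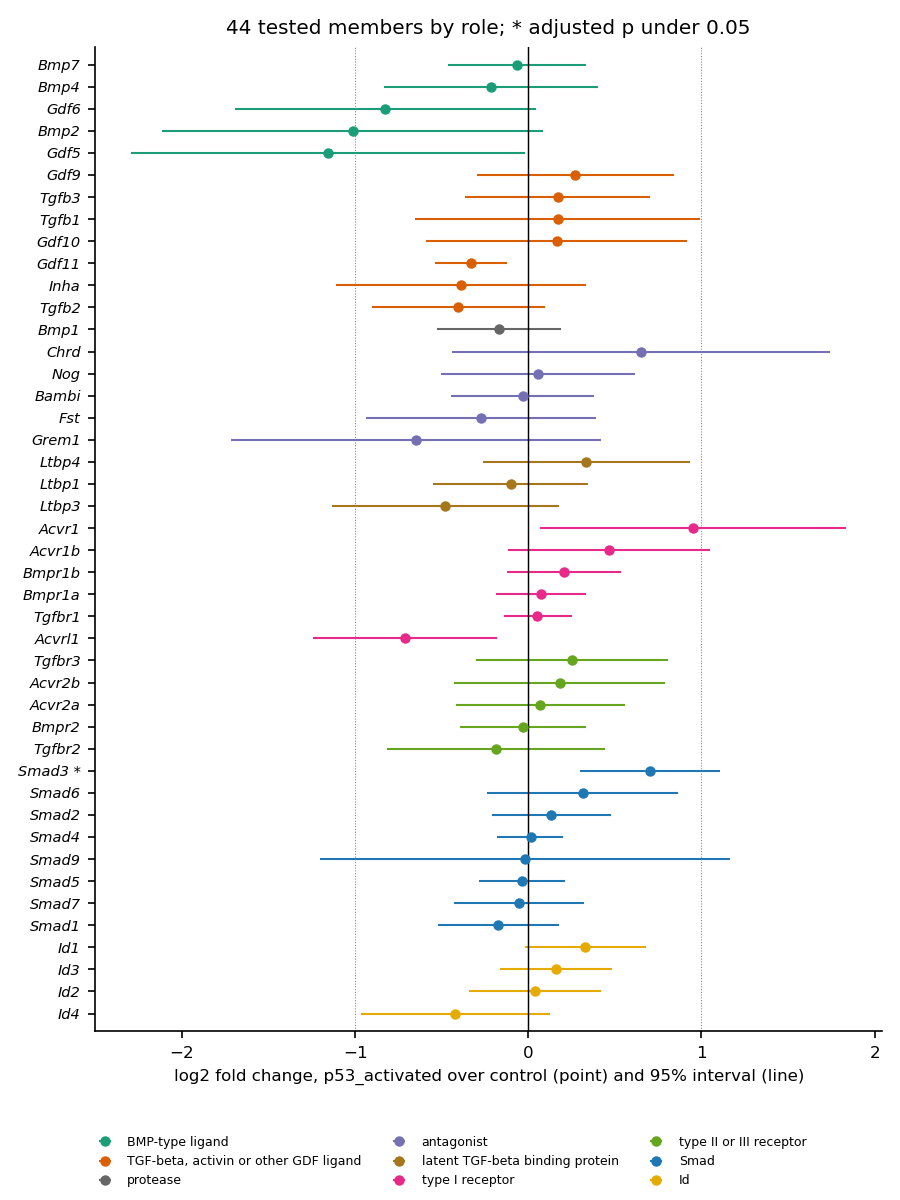
Log2 fold change of p53_activated over control for 44 of the 45 tested members (points) with 95% intervals (lines), coloured by role, with dotted lines at a 2-fold difference in either direction. Smad3, marked by an asterisk, is the member past an adjusted p of 0.05. Points lie below 0 for all 5 tested BMP-type ligands, where log2 fold changes were below 0 for 7463 of all 14528 tested genes.

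Among the BMP-type ligands, 5 of 14 genes had enough counts to be tested, and 0 passed. Bmp7, which acts in many embryonic tissues, was by far the most abundant. It had 30.6, 33.9, 26.1, 50.2 and 25.9 CPM in p53_activated replicates 1 to 5, against 40.5, 42.2, 24.7, 33.2 and 34.4 CPM in control replicates 1 to 5. The ranges overlapped, and the fold of 0.96 had a 95% interval of 0.72 to 1.26. Bmp4, a ligand of dorsal ectoderm and roof plate, averaged 3.97 ± 1.52 CPM in p53_activated and 4.64 ± 0.92 CPM in control embryos (SD, n = 5 each; fold 0.86, interval 0.56 to 1.32). Bmp2, Gdf5 and Gdf6, ligands with known roles in heart and joint development, were below 3 CPM in every library. Their log2 fold changes were -1.01 ± 0.52 for Bmp2, -1.16 ± 0.54 for Gdf5 and -0.83 ± 0.41 for Gdf6 (SE), with adjusted p of 0.265, 0.212 and 0.246. Gdf5 had 0.41, 0.58, 0.26, 0.53 and 0.69 CPM in p53_activated replicates 1 to 5, against 2.22, 1.49, 0.42, 0.83 and 0.66 CPM in control replicates 1 to 5. Its highest values were those of control replicates 1 and 2, and without both of them its log2 fold change was -0.33 (adjusted p = 0.841). Bmp2 was highest in the same libraries, at 2.22 and 1.81 CPM, and without both its log2 fold change was -0.41 (adjusted p = 0.787). Gdf5 also shares 40.3% of its exon length with the predicted gene Gm15557 on the opposite strand, so its count is uncertain. All 5 tested ligands had log2 fold changes below 0, as did 7463 of all 14528 tested genes, and 4 of the 5 had 95% intervals that included 1-fold. The sign did not hold in every setting, since Bmp7 was at 0.125 without both control replicates 1 and 2.

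The remaining 9 BMP-type ligand genes had too few counts to be tested. Bmp15, a ligand of the oocyte, had 0 counts in all libraries, which allows up to 3 counts, and Bmp8a and Bmp10 had 3 and 2 counts over the p53_activated libraries, against 0 and 9 over the control libraries. Gdf7, a roof plate ligand that specifies dorsal interneurons, had 2, 5, 14, 31 and 3 counts in p53_activated replicates 1 to 5, against 5, 1, 0, 3 and 0 in control replicates 1 to 5. The values of p53_activated replicates 3 and 4 were the highest and the other 3 overlapped with control. Bmp6 had 51 of its 71 counts of the p53_activated group in replicate 4, the deepest library, and 32 counts over the control libraries. Bmp3, Bmp5, Bmp8b and Gdf2 had 20 to 34 counts over the p53_activated libraries and 6 to 40 over the control libraries, and 46.7% of the exon length of Bmp5 and 12.2% of that of Bmp8b are shared with other genes.

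In the TGF-beta, activin and other GDF ligands, 7 of 14 genes were tested and 0 passed at an adjusted p of 0.05. Gdf11, whose protein patterns the trunk axis and restrains neurogenesis, came nearest. On GRCm38 it lies on chromosome 10 from 128882295 to 128891718. It had 53.2, 57.6, 61.1, 65.7 and 72.8 CPM in p53_activated replicates 1 to 5, against 83.5, 78.2, 72.3, 82.0 and 74.8 CPM in control replicates 1 to 5. The groups touched at 1 point, where the highest p53_activated embryo (72.8 CPM) lay just above the lowest control embryo (72.3 CPM). The fold was 0.79 with an interval of 0.69 to 0.92 (log2 fold change -0.33 ± 0.10 SE, adjusted p = 0.0511). Over 22 other settings the adjusted p ranged from 0.019 to 0.14, and 5 of them gave a lower call. DESeq2 was 1 of these (adjusted p = 0.0234), as was leaving out p53_activated replicate 5 (adjusted p = 0.038). The neuronal markers were also all lower in p53_activated embryos, and their part in the Gdf11 values was not tested.

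The 3 TGF-beta genes were low and overlapped between the genotypes. Tgfb2, needed for heart and craniofacial development, had 7.23, 7.88, 5.96, 11.9 and 9.504 CPM in p53_activated replicates 1 to 5, against 14.3, 12.8, 6.19, 11.9 and 11.5 CPM in control replicates 1 to 5 (fold 0.76, interval 0.54 to 1.07). The groups overlapped, since control replicate 3 lay low and p53_activated replicate 4 lay high. Tgfb3, a ligand of palate fusion with 12.4% of its exon length shared with predicted genes, averaged 5.73 ± 0.93 CPM in p53_activated and 5.10 ± 1.83 CPM in control embryos. Tgfb1, the main TGF-beta of immune and endothelial cells, averaged 2.15 ± 0.95 CPM in p53_activated and 1.94 ± 0.67 CPM in control embryos. The inhibin alpha gene Inha averaged 2.81 ± 1.23 CPM in p53_activated and 3.73 ± 1.08 CPM in control embryos, and Gdf9 and Gdf10 averaged between 2.01 and 3.56 CPM in either group.

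Activin subunit genes were close to absent. Inhba, which encodes the beta A subunit of activin A, had 3 counts over the p53_activated and 7 over the control libraries, Inhbb had 31 and 19, Inhbc 5 and 0, and Inhbe 4 and 1. Gdf15, a stress-induced cytokine and a p53 target in other cells, had 0, 0, 1, 0 and 0 counts in p53_activated replicates 1 to 5, against 0, 0, 11, 0 and 2 counts in control replicates 1 to 5. It was thus at the floor in all 5 embryos with a raised Cdkn1a, and 11 of its 14 counts came from control replicate 3. Gdf3 had 41 counts over the p53_activated libraries, 28 of them in replicate 4, and 8 over the control libraries, all in replicate 4. Gdf1 was listed at 0 in every library. Its exons are wholly covered by those of Cers1 and Upf1, so counts of Gdf1 cannot be told apart from theirs. Bmp1, despite its name a protease that processes procollagen and cleaves chordin, averaged 50.1 ± 9.55 CPM in p53_activated and 56.4 ± 14.5 CPM in control embryos (fold 0.89, interval 0.69 to 1.14).

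The antagonists were all tested, and 0 of 6 passed. Bambi, a pseudoreceptor induced by BMP that blunts receptor signalling, was the most abundant of the class per length and averaged 22.2 ± 5.71 CPM in p53_activated and 22.7 ± 5.02 CPM in control embryos (fold 0.98, interval 0.73 to 1.30). Nog, which encodes noggin, averaged 3.36 ± 0.50 CPM in p53_activated and 3.25 ± 0.83 CPM in control embryos (fold 1.04, interval 0.71 to 1.53). Fst, the activin-binding follistatin gene, averaged 3.75 ± 1.59 CPM in p53_activated and 4.50 ± 1.41 CPM in control embryos. Grem1 and the chordin gene Chrd had wide intervals around folds of 0.64 (0.30 to 1.34) and 1.57 (0.74 to 3.34). Without both p53_activated replicates 4 and 5 the log2 fold changes were -1.26 for Grem1 and -0.03 for Chrd.

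The latent TGF-beta binding proteins were also without a call. Ltbp1 averaged 16.01 ± 4.68 CPM in p53_activated and 17.2 ± 4.76 CPM in control embryos, and Ltbp4 averaged 5.18 ± 2.13 CPM in p53_activated and 4.13 ± 0.73 CPM in control embryos. Ltbp3 had 4.40, 3.99, 3.08, 5.14 and 4.30 CPM in p53_activated replicates 1 to 5, against 8.36, 9.75, 3.61, 3.32 and 4.37 CPM in control replicates 1 to 5. Only control replicates 1 and 2 lay outside the range of the other libraries. Its log2 fold change of -0.48 became 0.16 without both of them (adjusted p = 0.386 and 0.815). Ltbp2 was not tested, with 36 counts over the p53_activated and 8 over the control libraries.

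**Figure D3:**
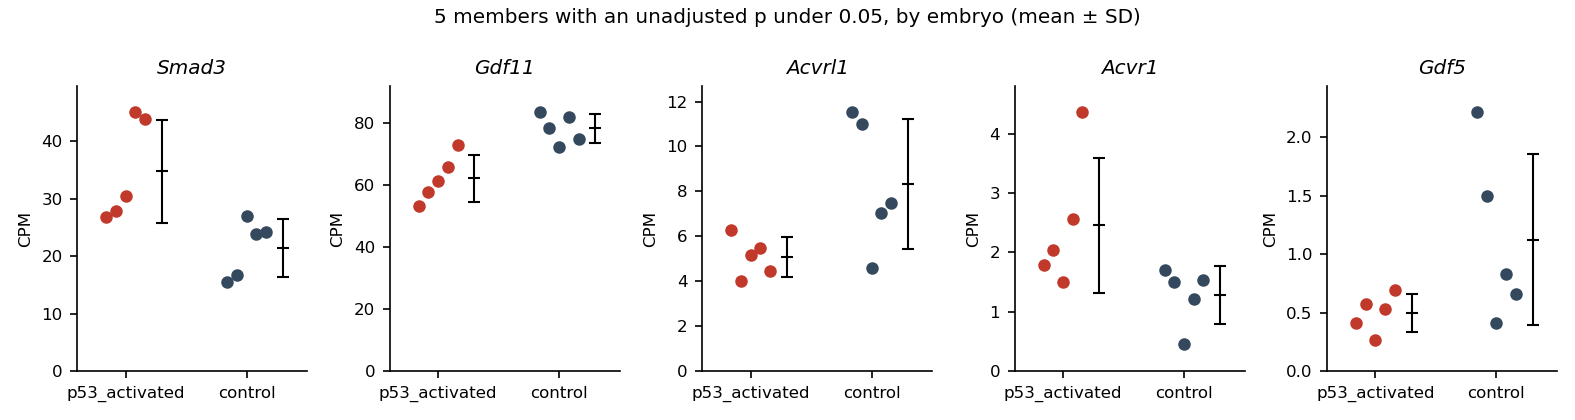
CPM by embryo for 5 members with an unadjusted p under 0.05, with p53_activated embryos in red left of control embryos in dark blue, points in replicate order from 1 to 5 and mean ± SD in black (n = 5 each). Smad3 passes the adjusted threshold. For each of the 5 genes the groups overlap, with Smad3 in p53_activated replicate 1 (26.8 CPM) just under control replicate 3 (26.95 CPM).

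Of the 12 receptor genes 11 were tested and 0 passed. Tgfbr1, the type I receptor of TGF-beta, had a narrow interval. It had 68.5, 70.2, 63.6, 80.8 and 68.4 CPM in p53_activated replicates 1 to 5, against 61.5, 68.8, 66.7, 71.7 and 70.3 CPM in control replicates 1 to 5, a fold of 1.04 with an interval of 0.91 to 1.19. The BMP type I receptor genes Bmpr1a (fold 1.05, interval 0.88 to 1.26) and Bmpr1b (fold 1.16, interval 0.92 to 1.45) were similarly bounded. Acvr1b, an activin receptor gene, averaged 7.73 ± 3.71 CPM in p53_activated, with 14.1 CPM in replicate 4, and 5.63 ± 0.91 CPM in control embryos.

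The other two tested type I receptor genes had unadjusted p under 0.05, in opposite directions. Acvrl1, the receptor known as ALK1 that acts in endothelium, had 6.26, 3.99, 5.17, 5.47 and 4.44 CPM in p53_activated replicates 1 to 5, against 11.5, 11.0, 4.61, 7.02 and 7.50 CPM in control replicates 1 to 5. The fold was 0.61 with an interval of 0.42 to 0.88 (adjusted p = 0.0976), and control replicates 1 and 2 were the highest of all libraries. Without both, the log2 fold change of -0.71 became -0.33 (adjusted p = 0.525), and without control replicate 3 it was -0.86 (adjusted p = 0.0333). Of the endothelial markers 0 of 5 tested were called, and the 6 summed to 8.25 to 23.3 CPM in p53_activated and 6.84 to 27.5 CPM in control libraries. Their part in the Acvrl1 values was not tested. Acvr1, a BMP receptor gene also called ALK2, had 1.79, 2.05, 1.51, 2.57 and 4.37 CPM in p53_activated replicates 1 to 5, against 1.71, 1.49, 0.46, 1.21 and 1.53 CPM in control replicates 1 to 5. All p53_activated embryos but replicate 3 lay above every control embryo, with a fold of 1.93 and an interval of 1.05 to 3.57 (adjusted p = 0.188). Over 21 other settings the Acvr1 log2 fold change ranged from 0.50 to 1.23, with 0 calls (adjusted p of 0.142 to 0.604). Acvr1c had 16 counts over the p53_activated and 10 over the control libraries and was not tested.

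Among type II and III receptors, Acvr2b, a receptor for activins and GDF11, had 113, 67.1, 109, 127 and 136 CPM in p53_activated replicates 1 to 5, against 43.4, 93.8, 124, 113 and 112 CPM in control replicates 1 to 5. Control replicate 1 and p53_activated replicate 2 were the low values, and the fold was 1.14 with an interval of 0.74 to 1.73. The BMP type II receptor gene Bmpr2 averaged 21.2 ± 4.50 CPM in p53_activated and 21.7 ± 4.04 CPM in control embryos (fold 0.98, interval 0.76 to 1.26), and Acvr2a averaged 6.92 ± 1.49 CPM in p53_activated and 6.61 ± 1.58 CPM in control embryos. Tgfbr2, without which TGF-beta cannot signal, was low at 2.85 ± 0.94 CPM in p53_activated and 3.26 ± 0.76 CPM in control embryos. The co-receptor gene Tgfbr3 averaged 4.50 ± 1.30 CPM in p53_activated and 3.78 ± 0.84 CPM in control embryos.

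Of the 8 Smad genes, Smad3 rose and the others did not pass the test. Smad3 encodes a transducer of TGF-beta and activin signals and lies on chromosome 9 from 63646767 to 63757994 on the minus strand (GRCm38). It had 26.8, 27.8, 30.4, 45.1 and 43.8 CPM in p53_activated replicates 1 to 5, against 15.5, 16.7, 26.95, 23.8 and 24.2 CPM in control replicates 1 to 5. The highest values were those of p53_activated replicates 4 and 5 and the lowest those of control replicates 1 and 2. The fold was 1.62 with an interval of 1.23 to 2.15 (log2 fold change 0.70 ± 0.19 SE, adjusted p = 0.0383). Most single libraries were needed for it to pass, and it no longer passed without control replicate 1 (adjusted p = 0.0746), 2 (0.101), 4 (0.0594) or 5 (0.0507) and without p53_activated replicate 3 (0.0532), 4 (0.0865) or 5 (0.106). Without both control replicates 1 and 2 the log2 fold change was 0.48 (adjusted p = 0.161), and without both p53_activated replicates 4 and 5 it was 0.41 (adjusted p = 0.241). Relative to its partner, Smad3 made up 75.1% ± 6.77 of the summed RPKM of Smad2 and Smad3 in p53_activated and 67.3% ± 4.96 in control embryos, and these ranges overlapped.

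The shared and BMP Smads were closely bounded, apart from Smad9. Smad4, the shared partner, had 76.3, 73.4, 71.2, 68.9 and 78.1 CPM in p53_activated replicates 1 to 5, against 78.6, 73.8, 79.7, 61.9 and 70.2 CPM in control replicates 1 to 5. These values interleave, and the fold was 1.01 with an interval of 0.88 to 1.15. Smad5, the main BMP Smad here, had 179, 197, 176, 174 and 178 CPM in p53_activated replicates 1 to 5, against 223, 229, 151, 167 and 158 CPM in control replicates 1 to 5. Control replicates 1 and 2 again lay apart, above all other libraries, and the fold was 0.98 with an interval of 0.82 to 1.16. Smad1 (fold 0.89, interval 0.70 to 1.13) and Smad2 (fold 1.09, interval 0.86 to 1.39) were similarly placed, whereas Smad9, which averaged under 1 CPM in both groups, had an interval of 0.43 to 2.24.

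None of the 4 Id genes passed the test, nor did Smad6 or Smad7. The 4 Id genes encode helix-loop-helix proteins without a DNA-binding region, which hold back differentiation factors, and their summed level was 180 ± 34.8 RPKM in p53_activated and 150 ± 24.5 RPKM in control embryos. Id1 had 171, 135, 175, 97.2 and 114 CPM in p53_activated replicates 1 to 5, against 101, 85.3, 134, 119 and 112 CPM in control replicates 1 to 5. The first 3 p53_activated embryos lay above all control embryos and replicates 4 and 5 among them, and the fold was 1.25 with an interval of 0.98 to 1.60 (adjusted p = 0.253). Without p53_activated replicates 4 and 5 the log2 fold change of 0.33 became 0.55 (adjusted p = 0.0388). Of 22 other settings this was the 1 with a call, and Id1 log2 fold changes ranged from 0.19 to 0.55 (adjusted p up to 0.636). The values of Id1 and Smad3 shifted in opposite directions when p53_activated replicates 4 and 5 were left out. Id3 averaged 92.1 ± 11.3 CPM in p53_activated and 82.3 ± 19.2 CPM in control embryos (fold 1.12, interval 0.89 to 1.40). Id2 averaged 18.7 ± 4.38 CPM in p53_activated and 18.2 ± 3.43 CPM in control embryos (fold 1.03, interval 0.79 to 1.34). Id4 averaged 4.50 ± 0.73 CPM in p53_activated and 6.02 ± 2.14 CPM in control embryos (fold 0.75, interval 0.51 to 1.09). The feedback inhibitors Smad6 (fold 1.24, interval 0.85 to 1.82) and Smad7 (fold 0.96, interval 0.74 to 1.25), which are themselves induced by the pathway, were not called either.

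Start-site sequences are shown for Smad3 and the co-receptor gene Eng described next, which rose, and for the BMP targets Id2 and Smad6, whose windows hold a motif match. RefSeq windows of 300 bases on GRCm38.p6, from 250 bases before to 50 bases after an annotated start, were found by symbol for 44 of the 63 members. They are given 5′ to 3′ on the gene's strand, in lower case with motif matches in capitals.
Smad3 (chr9:63757945-63758244, minus strand): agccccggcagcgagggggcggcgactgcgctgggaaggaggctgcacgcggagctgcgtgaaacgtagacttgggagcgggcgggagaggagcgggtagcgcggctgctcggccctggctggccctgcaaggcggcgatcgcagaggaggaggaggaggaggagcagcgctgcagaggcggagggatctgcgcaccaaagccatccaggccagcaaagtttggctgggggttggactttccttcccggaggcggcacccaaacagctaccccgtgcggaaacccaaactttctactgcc
Id2 (chr12:25096043-25096342, minus strand): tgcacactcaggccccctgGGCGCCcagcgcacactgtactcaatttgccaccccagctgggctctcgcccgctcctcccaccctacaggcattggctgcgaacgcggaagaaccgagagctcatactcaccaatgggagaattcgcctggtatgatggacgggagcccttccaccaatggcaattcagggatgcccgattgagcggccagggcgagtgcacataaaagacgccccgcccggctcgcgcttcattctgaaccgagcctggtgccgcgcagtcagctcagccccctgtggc
Smad6 (chr9:64022010-64022309, minus strand): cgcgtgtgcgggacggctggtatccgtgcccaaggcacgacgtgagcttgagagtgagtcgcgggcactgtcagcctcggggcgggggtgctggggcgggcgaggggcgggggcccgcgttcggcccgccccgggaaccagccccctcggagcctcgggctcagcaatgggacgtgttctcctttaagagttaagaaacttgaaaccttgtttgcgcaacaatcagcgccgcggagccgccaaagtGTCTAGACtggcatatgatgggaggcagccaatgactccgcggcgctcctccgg
Eng (chr2:32646345-32646644, plus strand): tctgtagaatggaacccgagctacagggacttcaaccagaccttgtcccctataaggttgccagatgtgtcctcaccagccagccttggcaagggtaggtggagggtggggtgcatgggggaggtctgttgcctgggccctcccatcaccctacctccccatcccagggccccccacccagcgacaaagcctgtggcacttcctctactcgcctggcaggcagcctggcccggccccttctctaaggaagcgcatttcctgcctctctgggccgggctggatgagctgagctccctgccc
The motifs searched on both strands were GGCGCC, a site bound by BMP Smads, CAGACA and GTCTAGAC, which hold the Smad binding core, the E-box CACGTG, and the p53 half-site consensus. GGCGCC begins 231 bases before the start of Id2, and GTCTAGAC begins 4 bases before that of Smad6, while the windows of Smad3 and Eng hold none of the 5. Of the 55 member windows, 27.3% held GGCGCC, against 11.9% of all 32851 windows, but the member windows were also richer in G and C (median 63.3%, against 52.7%). CAGACA was held by 16.4% of member windows, against 21% of all. The p53 half-site consensus was held by 10.9% of member windows (6 of 55), against 8.36% of all. GTCTAGAC was held by 1.82%, which is the 1 window of Smad6, against 0.213% of all. CACGTG was held by 9.09% of member windows, against 7.15% of all. These are matches of letters in a short window and say nothing of binding elsewhere.

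Outside the members, 103 further genes of the pathway were read, of which 82 could be tested. They are other ligands and processing enzymes, extracellular modulators, co-receptors, Smad regulators and target genes. Of them 4 rose and 4 fell, which is 8 of 82 beside 7.23% of all tested genes. Their median log2 fold change was 0.08.

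**Figure D4:**
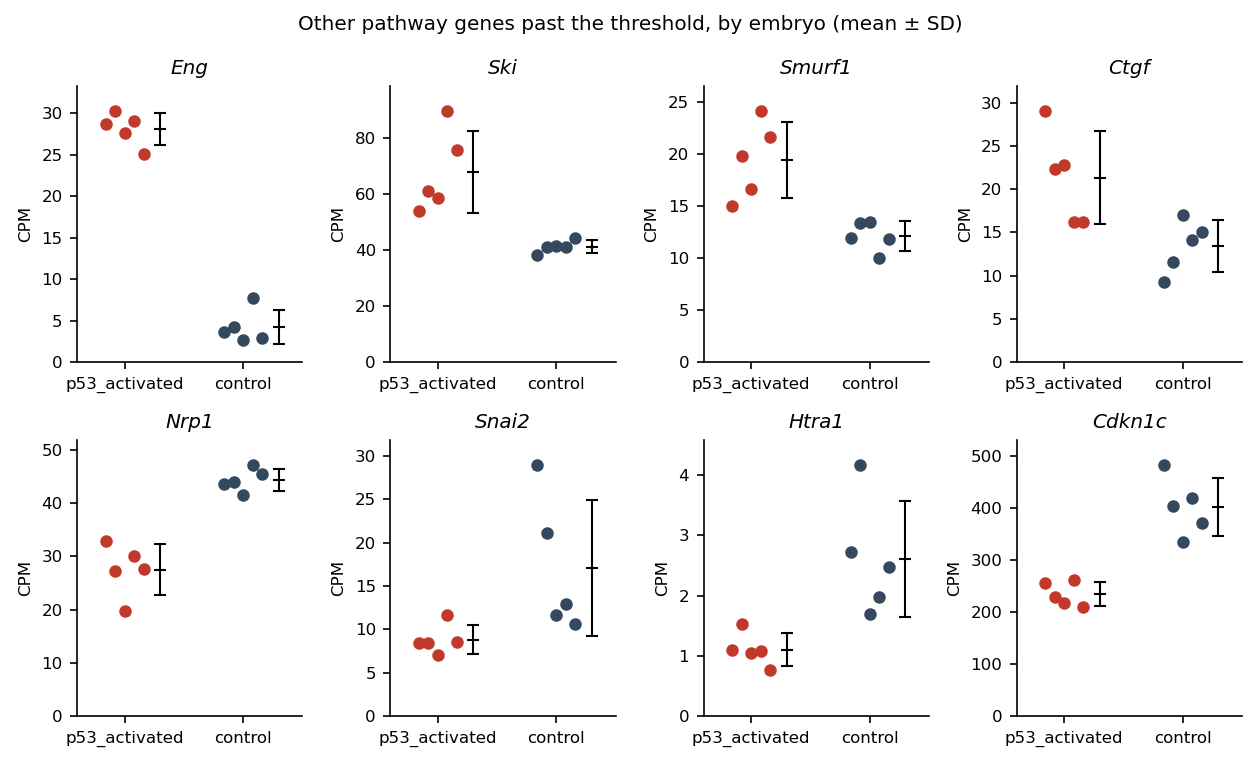
CPM by embryo for the 8 other pathway genes past an adjusted p of 0.05, with p53_activated embryos in red left of control embryos in dark blue, points in replicate order from 1 to 5 and mean ± SD in black (n = 5 each). Eng shows the widest separation, with p53_activated embryos from 25.1 to 30.3 CPM and control embryos from 2.62 to 7.72 CPM.

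The co-receptor gene Eng changed far more than any member. It encodes endoglin, which presents ligands to type I receptors such as ALK1 and is best known from endothelium, and lies on chromosome 2 from 32646595 to 32682669 (GRCm38). It had 28.7, 30.3, 27.6, 29.0 and 25.1 CPM in p53_activated replicates 1 to 5, against 3.64, 4.25, 2.62, 7.72 and 2.91 CPM in control replicates 1 to 5. No control embryo reached the lowest p53_activated embryo, with a fold of 6.69 and an interval of 4.68 to 9.57 (log2 fold change 2.74 ± 0.24 SE, adjusted p = 2.49e-06). The call held in all 22 other settings, with log2 fold changes of 2.60 to 3.08. Of the 6 endothelial markers 5 were tested and 0 called, with mean levels that lay on both sides of control. Pecam1 averaged 1.79 CPM in p53_activated and 2.56 CPM in control embryos, and Kdr 4.53 CPM in p53_activated and 5.78 CPM in control embryos. Tie1 averaged 2.37 CPM in p53_activated and 1.57 CPM in control embryos, and Emcn 3.95 CPM in p53_activated and 3.28 CPM in control embryos. Tek averaged 0.89 CPM in p53_activated and 0.92 CPM in control embryos, and Cdh5, which was not tested, 0.58 CPM in p53_activated and 0.35 CPM in control embryos. Nrp1, a semaphorin and VEGF receptor that also binds TGF-beta, fell, with 19.8 to 32.8 CPM in p53_activated and 41.5 to 47.2 CPM in control embryos (log2 fold change -0.69 ± 0.13, adjusted p = 0.00356). Of the 8 tested co-receptor genes these 2 were the called ones, beside 7.23% of all tested genes. The BMP co-receptor genes Rgma (fold 1.20, interval 0.97 to 1.47), Rgmb (fold 1.11, interval 0.81 to 1.54) and Neo1 (fold 0.97, interval 0.84 to 1.13) were not.

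Of 29 tested Smad regulators and partners 2 rose and 0 fell, which is 2 of 29 beside 7.23% of all tested genes. Ski, a corepressor that binds Smads, had 53.9, 61.02, 58.5, 89.6 and 75.8 CPM in p53_activated replicates 1 to 5, against 38.1, 41.1, 41.2, 41.2 and 44.4 CPM in control replicates 1 to 5 (log2 fold change 0.72 ± 0.13, adjusted p = 0.00308). Smurf1, a ubiquitin ligase that targets BMP Smads and receptors, had 15.1, 19.8, 16.7, 24.2 and 21.6 CPM in p53_activated replicates 1 to 5, against 11.9, 13.4, 13.5, 10.02 and 11.9 CPM in control replicates 1 to 5 (log2 fold change 0.68 ± 0.16, adjusted p = 0.0149). The groups did not overlap for either gene, and p53_activated replicates 4 and 5 were the highest for both, as for Smad3. Without both of these libraries the Smurf1 log2 fold change was 0.51 and no longer passed (adjusted p = 0.0898). Their paralogues Skil (fold 0.98, interval 0.78 to 1.24) and Smurf2 (fold 1.098, interval 0.89 to 1.36) were not called. Hipk2, a kinase that acts with Smad1 and phosphorylates p53, averaged 37.3 ± 15.8 CPM in p53_activated and 20.6 ± 3.80 CPM in control embryos (adjusted p = 0.0637). It was highest in p53_activated replicates 4 and 5 (55.7 and 52.0 CPM), while replicate 1 (19.1 CPM) lay within the control range of 15.9 to 26.1 CPM. Of 22 other settings 4 gave a call, and Hipk2 log2 fold changes ranged from 0.37 to 1.03. Ppm1a, a phosphatase of Smads, averaged 45.5 ± 4.98 CPM in p53_activated and 36.5 ± 2.59 CPM in control embryos (adjusted p = 0.0846).

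Of 14 tested extracellular modulators Htra1 fell and 0 rose, which is 1 of 14 beside 7.23% of all tested genes. The median over these 14 was -0.55 on the log2 scale, against -0.01 over all tested genes. Htra1, a secreted protease that can inhibit TGF-beta signals, had 0.76 to 1.52 CPM in p53_activated and 1.70 to 4.17 CPM in control embryos (log2 fold change -1.22 ± 0.36, adjusted p = 0.0499). Leaving out any single library other than control replicate 3 ended it (adjusted p of 0.0533 to 0.147). Log2 fold changes were below 0 for 11 of the 14, beside 7463 of all 14528 tested genes. Among the 11 were the BMP-binding Nbl1 (-0.97 ± 0.27, adjusted p = 0.0544) and the follistatin-like genes Fstl1 (-0.47 ± 0.14, adjusted p = 0.0598) and Fstl5 (-1.54 ± 0.48, adjusted p = 0.0609). Fstl5 was low, with 0.28 to 1.375 CPM in p53_activated and 1.34 to 2.91 CPM in control embryos, and its groups overlapped. Nbl1 was highest in control replicates 1 and 2, at 97.3 and 81.0 CPM, against 27.1 to 44.9 CPM in the other 8 libraries. Of 11 tested genes for other ligands and ligand processing, 0 were called. The nearest was Thbs1, whose protein activates latent TGF-beta, with 5.92, 7.93, 5.11, 17.6 and 8.60 CPM in p53_activated replicates 1 to 5, against 4.43, 3.70, 4.78, 4.78 and 5.10 CPM in control replicates 1 to 5 (adjusted p = 0.0512). Nodal, Lefty1, Lefty2 and Mstn each averaged below 0.3 CPM in both groups and were not tested.

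Of 20 tested target genes 1 rose and 2 fell, which is 3 of 20 beside 7.23% of all tested genes. The groups did not overlap for 1 of the 20, beside 8.07% of all tested genes. Ctgf, a matrix-associated protein gene induced by TGF-beta among other signals, had 29.1, 22.3, 22.9, 16.2 and 16.2 CPM in p53_activated replicates 1 to 5, against 9.27, 11.6, 17.1, 14.2 and 15.0 CPM in control replicates 1 to 5 (log2 fold change 0.66 ± 0.19, adjusted p = 0.0497). The ranges overlapped, 23.2% of its exon length is shared with a predicted gene on the opposite strand, and 15 of 22 other settings gave no call. Among single libraries it was lost without control replicate 1, 2, 4 or 5 or p53_activated replicate 1, 2 or 3 (adjusted p of 0.0668 to 0.118). Cdkn1c, a cyclin-dependent kinase inhibitor gene and imprinted gene, had 210 to 261 CPM in p53_activated and 336 to 483 CPM in control embryos (log2 fold change -0.78 ± 0.10, adjusted p = 0.000181), and 30.7% of its exon length is shared with a predicted gene on the opposite strand. Snai2, a regulator of neural crest migration, averaged 8.82 ± 1.70 CPM in p53_activated and 17.04 ± 7.83 CPM in control embryos (adjusted p = 0.0416). It was highest in control replicates 1 and 2, and without both its log2 fold change of -0.94 became -0.41 (adjusted p = 0.269). Without either alone the adjusted p was 0.0841 and 0.102, and the call was also lost without p53_activated replicate 1, 2, 3 or 5 (0.0743 to 0.0981). The BMP-responsive homeobox genes Msx1 (fold 0.87, interval 0.68 to 1.11) and Msx2 (fold 1.02, interval 0.75 to 1.39), the BMP target gene Atoh8 (fold 1.16, interval 0.97 to 1.39) and the TGF-beta target gene Tgfbi (fold 0.69, interval 0.44 to 1.08) were not called.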

How the data were processed

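Polyadenylated RNA of sorted cells from 10 embryos was sequenced, 5 per genotype. Raw counts for each Ensembl gene were deposited by the authors. Per the submitters' processing notes, DESeq2 1.14.1, HTSeq 0.6.1, SAMtools 1.3.1 and HISAT2 2.0.4 are listed with GRCm38, with no roles stated. Which annotation release and strand setting were used is not given in the sources used here. Overlapping and antisense genes are therefore uncertain. A further deposited table by the authors holds, per the file headers, a mean normalized signal, log2 fold changes, a test score and p-values.

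Genes were kept by filterByExpr (minimum count 10, minimum total 15), which left 14528, then TMM-scaled; edgeR 4.0.16 gave the quasi-likelihood test (robust dispersions, no covariate, R 4.3.3), with Benjamini-Hochberg adjustment over all of them at 0.05. The standard error is the log2 fold change over the square root of F, and 95% intervals use the t distribution. CPM are TMM-scaled, over counts in tested genes. RPKM are CPM per kilobase of union exon length in GENCODE M21 (GRCm38, 99.5% of identifiers found). The test was checked on simulated data with known answers, in which 200 genes were changed, none of them at the lowest levels. It recovered 40.3% of the 1.5-fold, 73.1% of the 2-fold and 92.4% of the 4-fold changes, and 10 of its 147 calls were false. Members and lists were chosen with earlier results of these data known. Genes named are the members, the called genes of the other pathway list and up to 4 further genes per class with the smallest p, plus a few paralogues and targets picked with values in view. Alternatives were other scaling, filters and dispersions, DESeq2 1.42.0, limma-voom (limma 3.58.1), embryo sex or replicate number as a term, and leaving out libraries. Of the replicate pairs, deviations from group means correlated between -0.053 and 0.113. All pairs of libraries differed by more than sampling noise. Values of 1 member are not reported here.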

Additional observations from a re-analysis of the deposited data

Results flagged for a closer look

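Over 84 groups of 5 embryos, from the members and other pathway genes named by rule, 4 held an embryo whose gap to its nearest neighbour was unusually large for the range of its group, where chance gives about 1 in 20. Smad5 was at 197 CPM in p53_activated replicate 2, against 174 to 179 CPM in the other p53_activated embryos. Gata3, a target gene of the pathway list, was at 26.1 CPM in p53_activated replicate 2, against 16.8 to 19.2 CPM in the others of its group. Nbl1 was at 41.9 CPM in p53_activated replicate 4, against 27.1 to 29.3 CPM in the others, and Thbs1 at 17.6 CPM in the same embryo, against 5.11 to 8.60 CPM in the others.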

How the results depend on the processing

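The single higher call among the members became 0 with total counts, with embryo sex as a term, with limma-voom and without both control replicates 1 and 2, and 0 to 1 without single libraries. Without both p53_activated replicates 4 and 5 Smad3 was not called and Id1 was, so the number stayed at 1. Lower calls, 0 by the main test, were 1 with upper quartile scaling, 1 with a minimum count of 50, 2 with DESeq2, 1 without both p53_activated replicates 4 and 5, and 0 to 1 without single libraries. All called genes numbered 1664 with DESeq2, 656 without both control replicates and 636 to 1025 without single libraries, against 1050. The called genes of the other pathway list numbered 16 with DESeq2, 5 with total counts, 5 without both control replicates and 5 to 9 without single libraries, against 8. The share of higher calls among all called genes was 62.1%, and 51.7% with upper quartile scaling. The replicate numbers share no source in the labels. With the replicate block there were 804 called genes, 1 member higher and 0 lower, and 6 other pathway genes. Of the same-numbered pairs only that of replicate 3 correlated over 0.1 (0.113), so the numbers were not read as pairs. The cause of these shifts was not tested. Log2 fold changes changed sign without both control replicates 1 and 2 for Smad5 (0.191), Ltbp1 (0.182), Ltbp3 (0.156, against -0.48 with all libraries), Bmp7 (0.125), Bmp1 (0.0823) and Acvr2b (-0.0770), and without both p53_activated replicates 4 and 5 for Bambi (0.169), Ltbp4 (-0.158, against 0.34), Furin (-0.0723, against 0.40), Tgfbr3 (-0.0668), Acvr2b (-0.0084) and Smad5 (0.0008). Without single libraries they spanned 0 for Acvr2b (-0.0049 to 0.3195), Bambi (-0.1636 to 0.0936), Bmp7 (-0.2598 to 0.0290), Ltbp1 (-0.2964 to 0.0644), Smad5 (-0.0945 to 0.0551) and Tgfbr1 (-0.0015 to 0.0996). None of these sign changes passed the threshold. Without both control replicates 1 and 2 the sign also changed for Id3 (-0.03), Id2 (-0.14), Acvr2a (-0.03), Bmpr2 (0.07) and Smad7 (0.15), and 11 of the 23 members not followed above changed sign in at least 1 setting, with 0 called there. The median log2 fold change of the members ranged from -0.12 to 0.05. Depth limits the members under about 1 CPM, 18 of which could not be tested.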

Other observations

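Single libraries took unequal parts in the spread of the members. Of the 45 tested members, 14 had their highest CPM in control replicate 1 and 10 in p53_activated replicate 4, while 11 had their lowest in control replicate 3 and 8 in control replicate 1. Acvr2b and Id3 were lowest in control replicate 1, at 43.4 and 50.2 CPM, against 67.1 to 136 and 79.0 to 108 CPM in the other 9 libraries. The macrophage markers summed to 40.5 CPM in control replicate 1 and 8.60 CPM in control replicate 3, against 16.3 to 32.3 CPM in the other 8 libraries.

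Summed over all 14 genes, the BMP-type ligands came to 11.6 ± 3.18 RPKM in p53_activated and 12.7 ± 2.60 RPKM in control embryos (SD, n = 5 each). The other 14 ligand genes came to 23.2 ± 2.91 RPKM in p53_activated and 27.6 ± 3.04 RPKM in control embryos, most of it Gdf11. The 8 Smads came to 61.1 ± 2.48 RPKM in p53_activated and 59.3 ± 6.2 RPKM in control embryos. The 6 antagonists came to 9.37 ± 1.47 RPKM in p53_activated and 10.9 ± 1.082 RPKM in control embryos.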
